A study of Rattus norvegicus with 30 samples.

Results

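The aquaporin genes Aqp1, Aqp3, Aqp4, Aqp7, Aqp8, Aqp9 and Aqp11 were followed in rat testes matured in vivo and in cultured testicular explants. These 7 genes were looked up by symbol among the 17322 genes of the deposited table, and each was present. The set was selected on the rise of Aqp8 in culture, so the levels of Aqp8 in cultured tissues are given as a description and without a test. In at least 1 of the 10 groups, 5 of the 7 genes reached a median of 0.5 FPKM, the limit of detection used here. FPKM are fragments per kilobase of transcript scaled to the mapped reads of a library, so levels of different genes can be compared per length.

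All samples were testes or testicular fragments of Wistar Han rats with no genetic modification. Testes that were not cultured were taken at 8.5 days post partum (dpp), 14.5 dpp, 24.5 dpp, 30.5 dpp, 36.5 dpp and 53.5 dpp, with 3 libraries from different testes per age, but 2 at 14.5 dpp. Explants were made at 8.5 dpp by cutting each testis into 6 pieces, which were kept on agarose at the boundary of gas and medium, with knock-out serum replacement, retinol and vitamin E. Tissue was collected after 6 days (D6), 16 days (D16), 22 days (D22) and 28 days (D28) of culture, with 3 libraries per time. Each cultured library pooled 12 explants from at least 3 males, and the necrotic centre of the explants had been removed before RNA was extracted. Counted from birth, D6 has the age of 14.5 dpp testes, D16 that of 24.5 dpp, D22 that of 30.5 dpp and D28 that of 36.5 dpp.

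Libraries held between 12520 and 13563 genes above 0, and their relative depth, read from the spacing of low values, ranged from 0.819 to 1.49. The summed FPKM of 13 Sertoli cell markers lay between 433 and 5919 in the libraries, and this cell type was thus seen in every library. Spermatid markers (10 genes) did not exceed 37.4 FPKM in sum up to 24.5 dpp, and Prm1 and Prm2, which package sperm DNA, with Tnp1 were listed at 0 in every 24.5 dpp testis. Their sum was 22099 to 30014 FPKM at 53.5 dpp and at most 10.6 FPKM in cultured tissues. Of the 3 testes of 24.5 dpp, the third stood apart, with 92.7 FPKM over 8 Leydig cell markers against 378 and 621 FPKM in the others. It also had more Sertoli cell marker RNA (3271 against 2439 and 2328 FPKM) and spermatogonium marker RNA (124 against 80.1 and 67.8 FPKM). Its spermatocyte marker sum was lower (1072 against 1324 and 1384 FPKM). The 14.5 dpp testes also differed from each other, with 16.8 and 76.9 FPKM over 8 spermatocyte markers.

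Aquaporins are membrane proteins that form narrow pores. Classical members such as Aqp1, Aqp4 and Aqp8 conduct water, and Aqp8 also passes hydrogen peroxide and ammonia. Aqp3, Aqp7 and Aqp9 are aquaglyceroporins, which conduct glycerol and other small solutes beside water, and Aqp11 is an unorthodox member found mainly in membranes within the cell. In the testis, water movement accompanies the secretion of tubular fluid by Sertoli cells and the removal of cytoplasm from elongating spermatids. Aqp1 is best known from endothelium, red blood cells and the ducts that leave the testis, and Aqp7 from spermatids and sperm.

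The stretches of genome just before Aqp8 and Aqp1, the members that stood high in explants, are shown with that of Aqp11, which was low in explants and high in maturing testes. RefSeq promoters of build GRCr8 (the deposited values were made on rn6) were found for 6 of the 7 members. Bases of the gene itself were left out, and each line reads 5′ to 3′ on the strand of the gene. Capitals mark matches, on either strand, to TATAAA (the TATA box), ACGTG (the core of hypoxia response elements), GATAA (bound by GATA factors), TGACG (part of the cAMP response element), GGGCGG (the GC box) or CCAAT (the CCAAT box). A match is a run of letters and not a tested binding site. ACGTG and its reverse complement overlap within CACGTG.
Aqp8, chr1:187424193-187424313, plus strand: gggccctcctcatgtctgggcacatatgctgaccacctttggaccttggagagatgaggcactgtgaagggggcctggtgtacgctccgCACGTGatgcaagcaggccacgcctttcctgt
Aqp1, chr4:85812534-85812783, plus strand: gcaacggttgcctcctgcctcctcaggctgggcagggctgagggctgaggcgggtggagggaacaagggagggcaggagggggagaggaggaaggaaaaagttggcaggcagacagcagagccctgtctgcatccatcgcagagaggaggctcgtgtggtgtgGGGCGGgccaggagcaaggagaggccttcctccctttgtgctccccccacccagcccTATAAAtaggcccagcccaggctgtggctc
Aqp11, chr1:161467919-161468168, minus strand: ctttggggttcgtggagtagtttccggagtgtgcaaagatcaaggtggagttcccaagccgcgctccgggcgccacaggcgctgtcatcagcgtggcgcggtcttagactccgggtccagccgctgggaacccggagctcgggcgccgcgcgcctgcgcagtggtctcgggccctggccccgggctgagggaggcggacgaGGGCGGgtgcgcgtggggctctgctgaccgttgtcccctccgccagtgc
The 121 bases before Aqp8 held ACGTG on both strands, 32 to 27 bases before the outermost end of the gene, and no TATAAA. Of the 250 bases before the RefSeq start site of Aqp8, these 121 are the ones furthest from that site. The bases nearer to it lie within the gene and were not searched. In the same 121 positions of all 27457 RefSeq promoters, also those furthest from the start site, 7.87% held ACGTG. The 250 bases before Aqp1 held TATAAA 30 to 25 bases before the gene, which 13.1% of all promoters did within their 250 bases, and GGGCGG, which 32.4% did. The only match before Aqp11 was GGGCGG, 49 to 44 bases before the gene.

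Aqp8 was nearly silent in the youngest testes and was the most abundant of the 7 aquaporins at 24.5 dpp. At 8.5 dpp its levels were 0.128, 0.0952 and 0.409 FPKM, and at 14.5 dpp they were 0.962 and 15.4 FPKM. The 14.5 dpp testis with the higher Aqp8 was the one with the higher spermatocyte marker sum of 76.9 FPKM. The part of other cells in this difference was not tested. At 24.5 dpp the level was 305 ± 18.1 FPKM (SD, n = 3), with single values of 285, 308 and 321 FPKM, and Aqp8 ranked between 60 and 87 among all genes of a library.

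From 8.5 to 24.5 dpp, Aqp8 rose by 7.99 ± 0.12 (SE) on the log2(FPKM + 1) scale, with an adjusted p of 2.45e-07 in limma. The rise in culture that the set was selected on starts from 8.5 dpp tissue, so this test is not independent of the selection. The median of Aqp8 reached the limit of detection at 24.5 dpp but not at 8.5 dpp (0.128 FPKM), so a call could only be a rise. In this comparison 47.9% of all genes tested were called (22.6% higher and 25.3% lower at 24.5 dpp), that is, had an adjusted p of at most 0.05 and group medians at least 2-fold apart. After this peak the level fell to 139, 113 and 122 FPKM at 30.5 dpp, a change of -1.29 ± 0.13 with an adjusted p of 0.000444, while the median change over all tested genes was -0.39 and 39% were called (13.5% higher and 25.5% lower). It then stood at 114, 109 and 101 FPKM at 36.5 dpp and at 104, 92.3 and 152 FPKM at 53.5 dpp, and neither step was called. The change from 36.5 to 53.5 dpp was 0.07 ± 0.18 (adjusted p = 0.763), and its sign turned to -0.091 when libraries were rescaled to the same sum and to -0.14 without the third 53.5 dpp testis. In bulk tissue, fewer cells of a type and less RNA per cell cannot be told apart.

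In explants, each later culture time had higher levels of Aqp8, which is the pattern that the set was selected on. At D6 the levels were 13.0, 10.9 and 13.9 FPKM, which is 59.7 times the mean of the 8.5 dpp testes from which explants are cut. At D16 they were 66.8, 92.1 and 106 FPKM, a mean 7.02 times that of D6. At D22 they were 201, 136 and 154 FPKM and at D28 202, 203 and 259.7 FPKM, so that no library of a later time lay below a library of an earlier one. The steps from D16 to D22 and from D22 to D28 were 1.86-fold and 1.35-fold in the means.

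Set beside testes of the same age, the order of the 2 conditions changed with time. At 14.5 dpp the mean was 8.19 FPKM against 12.6 FPKM at D6, and the ranges overlapped. The D16 mean of 88.3 FPKM was below that of 24.5 dpp by 3.45-fold, with no overlap. At D22 the mean was 164 FPKM against 125 FPKM at 30.5 dpp with overlapping ranges, and at D28 it was 221 FPKM, 2.05 times the 108 FPKM of 36.5 dpp, with no overlap. No D28 library reached the lowest 24.5 dpp testis, at 285 FPKM. On the log2(FPKM + 1) scale Aqp8 changed by -1.49 from 24.5 to 36.5 dpp in vivo and by 1.33 from D16 to D28 in culture.

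**Figure D1:**
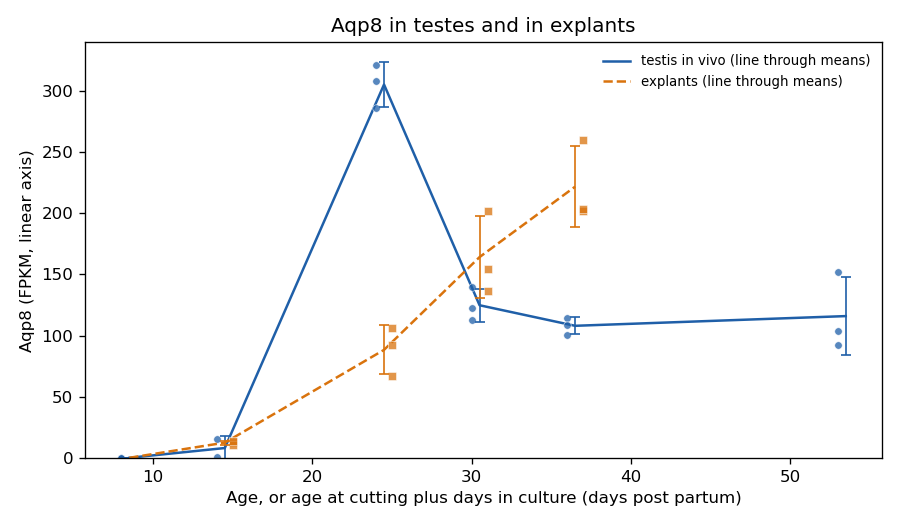
Aqp8 in FPKM (linear axis) against age in days post partum, with explants placed at the age of cutting plus the days in culture. Points are libraries, set slightly aside from their age, lines join the means and bars are SD (n = 3, and n = 2 at 14.5 dpp). In vivo means peaked at 305 FPKM at 24.5 dpp, while means of explants were higher at each later time, up to 221 FPKM at D28.

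Relative to Sertoli cell markers, Aqp8 was lower in explants than in testes of 24.5 dpp and older at every culture time. Wt1, a transcription factor of Sertoli cells, gave a ratio of Aqp8 to Wt1 of 4.88 to 5.46 at 24.5 dpp and of 8.58 to 11.6 at 53.5 dpp. In culture this ratio was 0.0574 to 0.0943 at D6 and 1.08 to 1.57 at D28. Against the sum of all 13 Sertoli markers, Aqp8 amounted to 9.82% to 13.2% at 24.5 dpp, 15.7% to 28.1% at 53.5 dpp and 3.75% to 4.39% at D28. That sum itself was 2305 to 2662 FPKM at D6 and 5005 to 5919 FPKM at D28, and it was 717 to 841 FPKM at 36.5 dpp. None of the 13 was at 0 throughout a group. The part of cell make-up in the levels of Aqp8 was not tested. Markers of spermatocytes and spermatids were low in D28 explants, and those of spermatogonia were not. Spermatocyte markers summed to 22.1 to 37.9 FPKM at D28 against 1072 to 1384 FPKM at 24.5 dpp, and Prm1 was listed at 0 in every D28 library. The 6 spermatogonium markers summed to 113 to 140 FPKM at D28, 67.8 to 124 FPKM at 24.5 dpp and 16.0 to 22.5 FPKM at 36.5 dpp.

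The gene whose group means followed Aqp8 most closely was Fam227a, with a Pearson correlation of 0.981 over the 10 group means on the log2(FPKM + 1) scale. It was followed by 6030498E09Rikl with 0.967 and by Scn10a, a voltage-gated sodium channel, with 0.966. Scn10a was weak throughout, with at most 1.05 FPKM in any library. Fam227a had 2.78 to 3.91 FPKM at D6, 7.97 to 13.8 FPKM at D22 and 9.92 to 10.4 FPKM at D28, and its 24.5 dpp values were 9.12 to 11.7 FPKM. The points share their libraries and the culture, and the genes were picked for this likeness out of 12761. Aqp2 was the aquaporin closest to Aqp8, with a correlation of 0.807 and place 95 in that order. Genes named below as most like Aqp1, Aqp7, Aqp9 or Aqp11 were picked for their likeness in the same way.

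Aqp1, the water channel of endothelium, was the member that stood higher in explants than in testes at every culture time. It was already weak in testes before culture, with 1.297, 1.12 and 1.06 FPKM at 8.5 dpp, and it became weaker with age. The levels were 0.909 and 0.517 FPKM at 14.5 dpp, between 0.0857 and 0.335 FPKM at 24.5 dpp, and 0.0456, 0 and 0 FPKM at 53.5 dpp. From 8.5 to 24.5 dpp it fell by 0.84 ± 0.11 on the log2(FPKM + 1) scale, with an adjusted p of 0.000431. In explants the levels were 10.1, 10.9 and 8.67 FPKM at D6 and 10.9, 10.8 and 11.4 FPKM at D16.

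The rise of Aqp1 from 8.5 dpp to D6 was 8.56-fold in the means and 2.33 ± 0.10 on the log2(FPKM + 1) scale (adjusted p = 1.83e-05). Of all genes tested between 8.5 dpp and D6, 16.3% were called. After D6 no step in culture was called, with changes of 0.15, -0.27 and -0.02, and the spread between libraries grew. At D22 the levels were 15.2, 7.77 and 6.00 FPKM and at D28 13.1, 6.58 and 7.92 FPKM, so the ranges at D6, D22 and D28 overlapped. The D22 to D28 change turned positive without the first D22 library (0.33), the second D28 library (0.17) or the third (0.05).

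Against testes of the same age, Aqp1 was higher by 3.32 ± 0.10 at D16 on the log2(FPKM + 1) scale (adjusted p = 3.86e-06 in limma). The difference was 3.16 ± 0.29 at D22 (adjusted p = 3.77e-05), and 3.16 ± 0.22 was found for D28 (adjusted p = 5.91e-06). Without the pseudocount, means were 52.1, 81.1 and 88.8 times those of the testes, whose levels lay below the limit of detection. The D6 mean was 13.9 times that of the 14.5 dpp testes, a ratio given without a test.

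The summed endothelial markers moved with Aqp1 between groups, but not always between libraries of a group. The sum over 10 of them was 56.8 to 59.6 FPKM at 8.5 dpp, 2.82 to 4.58 FPKM at 53.5 dpp and 62.9 to 123 FPKM in cultured tissues. From 8.5 dpp to D6, 4 of the 9 markers tested were called higher and 5 were not called, where 16.3% of all genes were called. Their median change on the log2(FPKM + 1) scale was 0.15, against 0.05 over all genes. Among the D22 libraries, the first had both the highest Aqp1 (15.2 FPKM) and the highest endothelial sum (123 FPKM against 75.8 and 71.4 FPKM), and the first D28 library stood out in the same way, with 106 FPKM against 62.9 and 78.9 FPKM. At D6 the third library had the highest sum (99.1 FPKM) and the lowest Aqp1 (8.67 FPKM), and at D16 the first had the highest sum (112 FPKM) while Aqp1 was highest in the third (11.4 FPKM). Aqp1 amounted to 1.80% to 2.18% of the endothelial sum at 8.5 dpp and to 8.40% to 12.6% in explants, without overlap. Erythroid markers (3 genes) went the other way, with 284 to 699.6 FPKM at 8.5 dpp and at most 8.55 FPKM in explants. The 7 markers of rete testis and efferent ducts summed to 95.3 to 97.5 FPKM at 8.5 dpp, 1.12 to 2.34 FPKM at 24.5 dpp and 11.5 to 30.7 FPKM in explants, with Pax2 and Cdh16 listed at 0 at 8.5 dpp and in all explants. The part of endothelial, duct or red blood cells in the level of Aqp1 was not tested.

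Dll4, a Notch ligand of sprouting endothelium, was among the genes most like Aqp1 over the 10 group means (Pearson correlation 0.997), between Bhlhe22 (0.998), a transcription factor, and Fam110d (0.996). Bhlhe22 was weak throughout, with at most 0.882 FPKM in any library. Dll4 stood at 1.74, 0.981 and 1.12 FPKM at 8.5 dpp and at 11.1, 12.2 and 14.5 FPKM at D6. Its first library was the highest at D22 (14.8 FPKM) and D28 (14.1 FPKM), as for Aqp1, but at D6 it was highest in the third library, where Aqp1 was lowest, and at D16 in the first (12.0 FPKM).

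**Figure D2:**
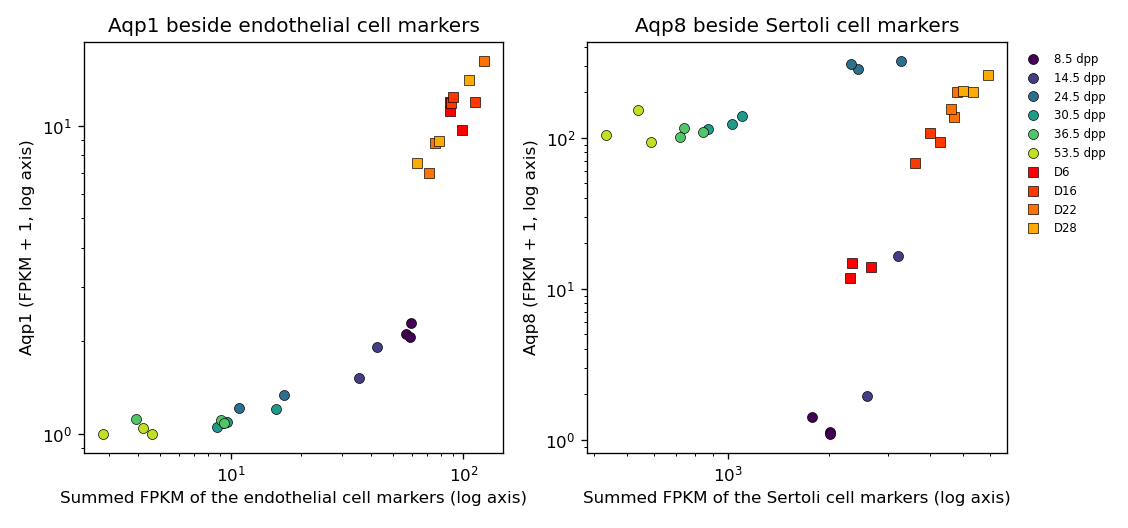
Left, Aqp1 (FPKM + 1) against the summed FPKM of 10 endothelial markers, and right, Aqp8 (FPKM + 1) against that of 13 Sertoli cell markers, all axes logarithmic. Each point is a library, circles are testes and squares are explants. Explants lay above 8.5 dpp testes in Aqp1 (at least 6.00 against at most 1.297 FPKM), and later culture times had higher values on both axes of the right panel, while the order of libraries within a time differed between the axes.

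Aqp7, Aqp9 and Aqp11 all rose in vivo from 24.5 dpp on and stayed low in explants, but their courses differed. Aqp7, a glycerol channel of spermatids and sperm, was higher at each later age from 24.5 dpp on. Its levels were at most 0.154 FPKM at 8.5 and 14.5 dpp, then 3.23, 3.47 and 1.85 FPKM at 24.5 dpp and 26.3, 53.7 and 36.2 FPKM at 30.5 dpp. They reached 125, 117 and 98.2 FPKM at 36.5 dpp and 193, 204 and 215 FPKM at 53.5 dpp. No library of one of these 4 ages overlapped with the next.

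The step of Aqp7 from 24.5 to 30.5 dpp was 3.34 ± 0.28 on the log2(FPKM + 1) scale (adjusted p = 0.000246), and that from 30.5 to 36.5 dpp was 1.58 ± 0.25 (adjusted p = 0.0170). At the latter step 7.54% of all genes tested were called, and the call of Aqp7 was lost without the third 30.5 dpp testis or without any 1 of the 36.5 dpp testes (adjusted p from 0.0530 to 0.0690). From 36.5 to 53.5 dpp, where 7.86% of genes were called, the change of 0.85 ± 0.12 had an adjusted p of 0.00453 with medians less than 2-fold apart, so it was not called. Among the 30.5 dpp testes, that with the most Aqp7 (53.7 FPKM) also had the highest spermatid marker sum, 1744 FPKM against 453 and 748 FPKM.

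In explants, Aqp7 was listed at 0 in 10 of the 12 libraries, and in the second library of D6 and of D16 it had 0.0596 and 0.0543 FPKM. All libraries of D22 and D28 were at 0, so no fold change is given for these times. Their differences from 30.5 and 36.5 dpp testes were called (adjusted p = 1.35e-06 and 8.09e-09). Klhl10, a gene needed for spermatid differentiation, was among the 3 genes most like Aqp7, with Itln1 and Ankef1 (Pearson correlations 0.999 each over the 10 group means). Klhl10 stood at 295 to 335 FPKM at 53.5 dpp and at most 0.712 FPKM in explants.

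Aqp9, an aquaglyceroporin that also passes urea, had its highest levels at 30.5 dpp. Its levels were at most 0.495 FPKM at 8.5 and 14.5 dpp and 13.0, 11.8 and 3.32 FPKM at 24.5 dpp. They were 31.0, 31.7 and 32.7 FPKM at 30.5 dpp, 22.6, 25.1 and 21.7 FPKM at 36.5 dpp, and 16.8, 16.1 and 16.5 FPKM at 53.5 dpp. The rise from 8.5 to 24.5 dpp was 3.00 ± 0.43 on the log2(FPKM + 1) scale (adjusted p = 0.000655), and that from 24.5 to 30.5 dpp was 1.84 ± 0.42 (adjusted p = 0.00672). The 24.5 dpp testis with 3.32 FPKM was the one low in Leydig cell markers, and without it these changes were 3.54 and 1.29. That testis also held the lowest spermatocyte marker sum of its age, 1072 FPKM against 1324 and 1384 FPKM. The changes of -0.44 and -0.47 at the 2 steps after 30.5 dpp had adjusted p-values of 0.0233 and 0.00961, but the medians were less than 2-fold apart.

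In explants, Aqp9 never exceeded 0.385 FPKM, below the limit of detection. Its difference from testes of the same age was -3.10 ± 0.43 at D16 on the log2(FPKM + 1) scale (adjusted p = 0.000639). It was -4.75 ± 0.10 at D22 (adjusted p = 5.21e-08), and -4.25 ± 0.12 was found for D28 (adjusted p = 7.58e-08). The 3 genes most like Aqp9 were Dnai3, an axonemal dynein subunit (Pearson correlation 0.999), with Fam186b and Glb1l. Dnai3 peaked at 17.1 to 24.7 FPKM at 30.5 dpp and was listed at 0 in all but 1 of the cultured libraries.

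Aqp11 was the only one of these 3 above the limit of detection in all 10 groups, and it was the most abundant of the 7 members from 30.5 dpp on. Its levels were 2.34, 1.81 and 1.75 FPKM at 8.5 dpp and 3.51 and 3.49 FPKM at 14.5 dpp. At 24.5 dpp they were 33.3, 40.8 and 26.1 FPKM, at 30.5 dpp 201, 247 and 219 FPKM, at 36.5 dpp 295, 304 and 275 FPKM, and at 53.5 dpp 398, 327 and 369 FPKM. Ranges of successive ages did not overlap. The rise was 3.52 ± 0.17 from 8.5 to 24.5 dpp (adjusted p = 6.33e-06) and 2.71 ± 0.18 from 24.5 to 30.5 dpp (adjusted p = 9.10e-05) on the log2(FPKM + 1) scale. Later steps of 0.39 and 0.32 had medians less than 2-fold apart and were not called.

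In explants Aqp11 had 2.55, 3.25 and 4.02 FPKM at D6 and 5.90, 4.12 and 5.99 FPKM at D28. None of its steps in culture was called. That from 8.5 dpp to D6 was 0.52 ± 0.15 (adjusted p = 0.0244) with medians less than 2-fold apart, and it was called without the first D6 library (0.64, adjusted p = 0.0143). The D6 and D16 ranges overlapped with the 14.5 dpp values. Against testes of the same age, Aqp11 differed by -2.87 ± 0.16 at D16 (adjusted p = 1.73e-05), with a 9.17-fold higher mean in the testes. It differed by -5.31 ± 0.10 at D22 (adjusted p = 4.39e-08), a 48.4-fold gap of the means, and by -5.54 ± 0.14 and 54.6-fold for D28 (adjusted p = 4.69e-08). Most like it over the 10 group means were Rsph14, a radial spoke protein of motile cilia and sperm tails (Pearson correlation 0.998), Plekha5 (0.998) and Spag8 (0.998).

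**Figure D3:**
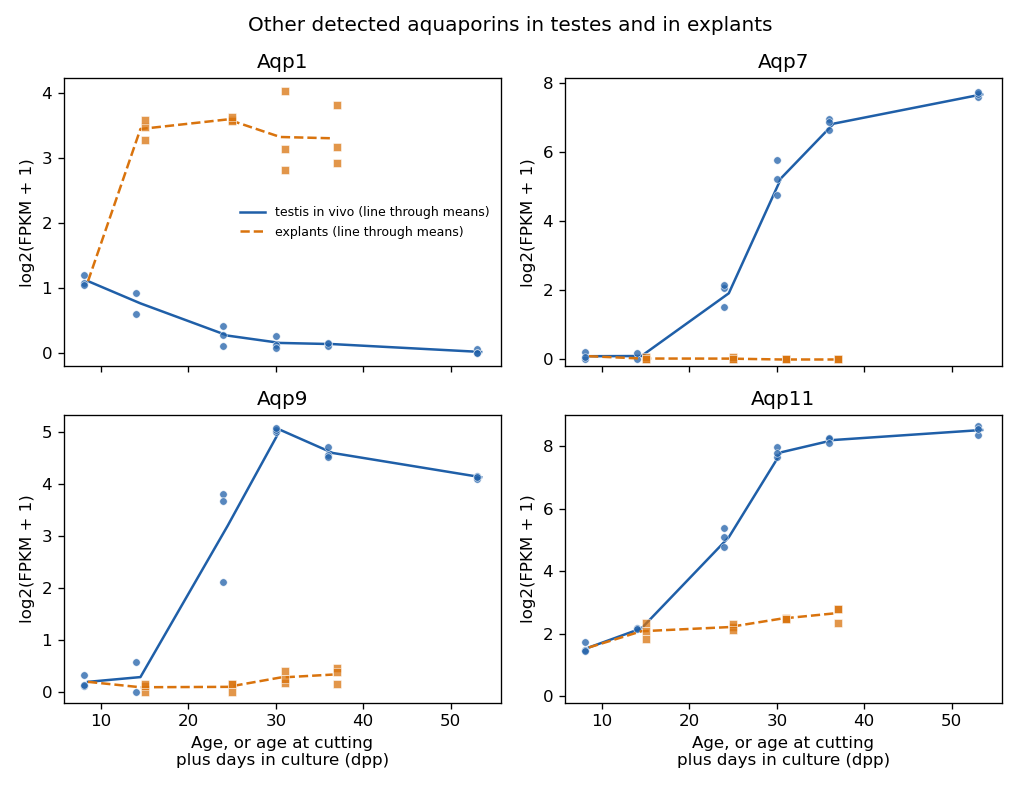
Levels of Aqp1, Aqp7, Aqp9 and Aqp11 on the log2(FPKM + 1) scale against age in days post partum, with explants at the age of cutting plus days in culture. Points are libraries, set slightly aside, and lines join group means. Aqp1 was high in explants from D6 on (at least 6.00 FPKM), whereas Aqp7, Aqp9 and Aqp11 rose in testes from 24.5 dpp.

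Aqp3 and Aqp4 were not detected in any group. Aqp3, an aquaglyceroporin of epithelia, was highest in the second 53.5 dpp testis with 0.687 FPKM, and its highest group median was 0.415 FPKM at 36.5 dpp. Aqp3 and Aqp7 are neighbours in the genome with 1 other gene between them, and the RNA of Aqp3 remained below 1 FPKM where Aqp7 exceeded 100 FPKM. Aqp4, the main water channel of astrocytes, did not exceed 0.0600 FPKM and was listed at 0 in every cultured library and in every testis up to 24.5 dpp. The depth behind these values is unknown, so a level below them was not detectable.

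Of the other aquaporins in the table, Mip, Aqp2 and Aqp12a were detected, and Aqp5 and Aqp6 were not. Aqp12a, a member first known from pancreas, had 26.1, 19.1 and 18.1 FPKM at 8.5 dpp and only 0.418 and 0.0289 FPKM at 14.5 dpp, a change of -4.18 ± 0.21 on the log2(FPKM + 1) scale (adjusted p = 0.00155, with 15.7% of genes called). Of these 2 ages, the limit of detection was reached at 8.5 dpp alone, so this call could only be a fall. Aqp12a also fell in explants, to 0.732, 0.481 and 0.910 FPKM at D6 (-3.68 ± 0.16, adjusted p = 1.67e-05). Aqp2, the vasopressin-regulated channel of the kidney, was listed at 0 at 8.5 dpp and had 2.57, 2.59 and 0.748 FPKM at 24.5 dpp, lowest again in the third testis. It reached 0.561 to 0.651 FPKM at D28, and it was called lower than in the testes at D16 and D22 but not at D28. The D16 median of Aqp2 (0.316 FPKM) was below the limit of detection, so a call at D16 could go no other way. Mip, the lens channel, did not exceed 0.905 FPKM.

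Taking the 7 members together, the F test over the 5 in vivo ages other than 14.5 dpp called all 5 detected members, as it did 88.7% of all genes tested. The 8.5 dpp levels of Aqp8, from which its rise in culture starts, enter this test. From 8.5 to 24.5 dpp 4 of the 5 detected members rose and Aqp1 fell, where 22.6% of all genes were called higher and 25.3% lower. Only Aqp11 reached the limit of detection at both ages. Aqp7, Aqp8 and Aqp9 reached it at 24.5 dpp alone and Aqp1 at 8.5 dpp alone, so their calls could go no other way. From 14.5 to 24.5 dpp this holds for Aqp1, Aqp7 and Aqp9 as well. From 14.5 to 24.5 dpp, where 35.6% of all genes were called (14.6% higher and 21.1% lower), Aqp7 (1.82 ± 0.23), Aqp9 (2.91 ± 0.53) and Aqp11 (2.91 ± 0.21) rose, and Aqp1 (-0.49 ± 0.17, adjusted p = 0.0520) was not called, but it was with a pseudocount of 0.1 (adjusted p = 0.0401), with an intensity trend in the variance (0.0416) or with the replicate block (0.0423). The call of Aqp9 at this step was lost without the first 14.5 dpp testis (adjusted p = 0.0670), when the remaining one is assumed to vary like the other group. Between 8.5 and 14.5 dpp only Aqp11 and Aqp1 were tested and neither was called, where 15.7% of all genes were. Aqp8 was not tested at this step, and its mean was 38.9-fold higher at 14.5 dpp. For the tested members limma gave 0.61 ± 0.12 for Aqp11 (unadjusted p = 0.00295, adjusted p = 0.0143) and -0.34 ± 0.13 for Aqp1 (unadjusted p = 0.0455, adjusted p = 0.0892). Aqp11 was called at this step after rescaling, and Aqp1 was called without the first 14.5 dpp testis (adjusted p = 0.00887 and 0.0242).

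Explants and testes of the same age differed in each of the 12 tests made on Aqp1, Aqp7, Aqp9 and Aqp11. At each of the 3 times, Aqp1 was higher and the other 3 were lower in explants. At these times only Aqp11 reached the limit of detection in both explants and testes. Aqp1 reached it in explants alone, and Aqp7 and Aqp9 in testes alone, so their calls could go no other way. Of all genes, 43.6% were called at D16 (25.3% higher and 18.3% lower), 65% at D22 (42.1% higher and 22.9% lower) and 70.3% at D28 (46.7% higher and 23.6% lower). Within culture, the shares were 3.3% from D6 to D16, 0.162% from D16 to D22 and 0.0269% from D22 to D28, and no tested member was called in these steps (Aqp1 and Aqp11 were the members tested). Of these 6 limma tests, that of Aqp11 from D16 to D22 had an unadjusted p below 0.05 (0.00847, adjusted p = 0.212).

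The change from D16 to D28 was also compared with that from 24.5 to 36.5 dpp in 1 fit. Aqp7 changed by 4.91 in vivo and by -0.03 in culture, and the difference of -4.94 ± 0.22 on the log2(FPKM + 1) scale was called (adjusted p = 6.36e-09). Aqp7 had at most 0.0543 FPKM at D16 and was listed at 0 at D28. It could hardly fall in culture, and the difference mainly restates its rise in vivo. Aqp11 changed by 3.11 in vivo and by 0.44 in culture, with a difference of -2.67 ± 0.23 (adjusted p = 2.41e-06). The difference of Aqp9, -1.16 ± 0.49, had an adjusted p of 0.0537, and that of Aqp1, -0.16 ± 0.26, one of 0.596. In this test 41.3% of all genes were called. Without the first or the second 24.5 dpp testis, Aqp9 passed as well (-1.46 and -1.39, adjusted p = 0.0168 and 0.0283), and without the third its difference was -0.61. Aqp9 changed by 1.39 in vivo and by 0.24 in culture, and its medians at D16 and D28 were below the limit of detection. Aqp9 could hardly fall in culture, so its difference also mainly restates its rise in vivo.

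**Figure D4:**
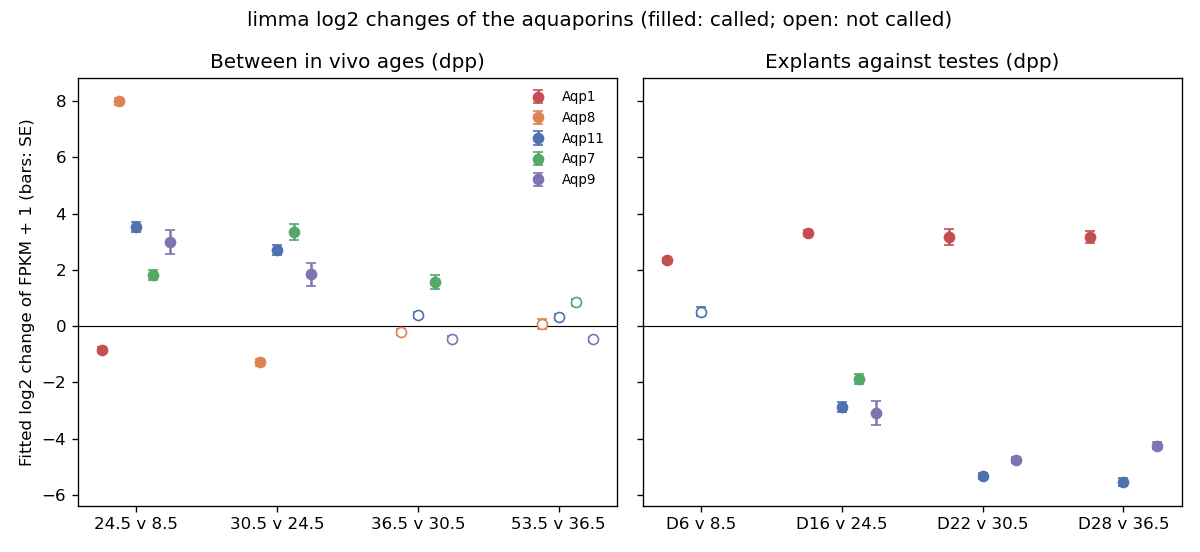
Fitted log2 changes of FPKM + 1 with SE for the tested members, between in vivo ages (left) and for explants against testes (right), with filled points for called changes and open points for others. Aqp8 is left out on the right, where it was not tested, and Aqp7 at D22 and D28, where explants were listed at 0. Aqp1 lies above 0 in each comparison on the right, and Aqp7, Aqp9 and Aqp11 lie below 0 from D16 on.

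The make-up of aquaporin RNA was compared by the share of each member. The summed FPKM of the 7 members was 3.34 to 3.85 at 8.5 dpp, 335 to 364 at 24.5 dpp and 640.5 to 752 at 53.5 dpp, against 25.4 to 26.7 at D6 and 214 to 274 at D28. Aqp11 and Aqp1 held 49.5% to 60.8% and 29.9% to 33.6% of the sum at 8.5 dpp. Aqp8 held 84.6% to 91.1% at 24.5 dpp and 14.4% to 20.2% at 53.5 dpp, when Aqp11 held 49.1% to 55.9% and Aqp7 27.1% to 31.9%. In explants, Aqp8 and Aqp1 overlapped in level at D6, and Aqp8 then held 81.9% to 87.8% of the sum at D16 and 91.2% to 95.0% at D28. At D28 the order was Aqp8, Aqp1, Aqp11 and Aqp9, with no overlap between neighbours.

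**Figure D5:**
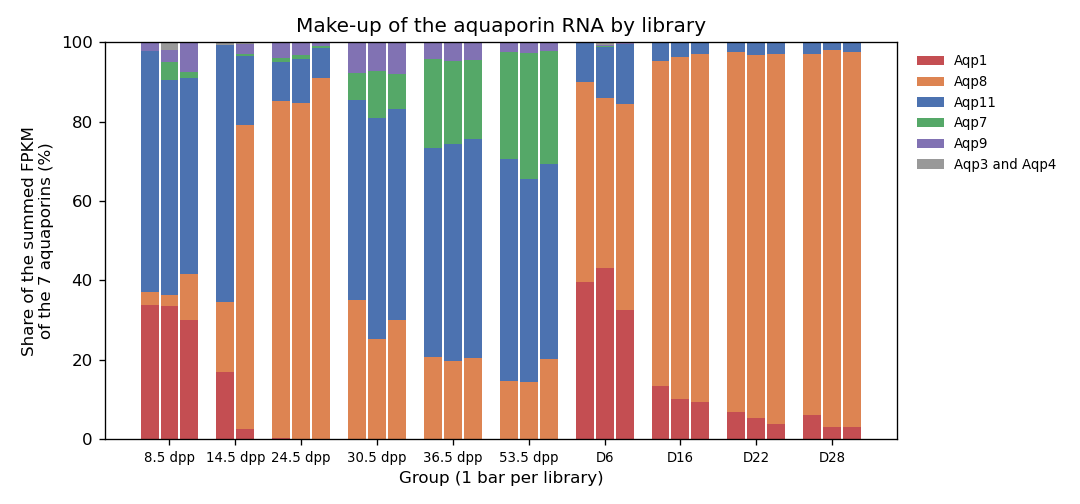
Share of each aquaporin (in percent) in the summed FPKM of the 7 members, with 1 bar per library and libraries ordered by group. Aqp8 made up at least 84.6% of the sum at 24.5 dpp and at least 91.2% at D28, while Aqp11 made up at least 49.1% from 30.5 dpp on in vivo.

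Genes that work beside aquaporins were counted in 4 lists, each read against all genes tested at D28 against 36.5 dpp, of which 46.7% were called higher and 23.6% lower. Dystrophin and its partners anchor Aqp4 in other tissues, and 5 of the 6 tested were higher at D28 than at 36.5 dpp and none lower, with a median log2 change of 2.02 against 0.64 over all genes. Among them were Dag1 (2.91 ± 0.10), which encodes dystroglycan, Sntb1 (2.38 ± 0.12), a syntrophin, and Dmd (2.18 ± 0.13), dystrophin itself. Of these, Dag1 stood at 172 to 178 FPKM at 8.5 dpp, 29.2 to 33.3 FPKM at 36.5 dpp and 233 to 249 FPKM at D28, and Aqp4 was listed at 0 in all D28 libraries.

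For glycerol handling, 5 of 11 tested genes were higher and 5 lower at D28 than at 36.5 dpp (46.7% and 23.6% of all genes), so that the share of higher genes was near that of all genes. The median was -0.78 against 0.64 over all genes. Mgll, which releases glycerol from monoacylglycerol, was lower (-5.53 ± 0.13), as were Gpd2, the mitochondrial glycerol-3-phosphate dehydrogenase (-3.31 ± 0.09), and Lipe, hormone-sensitive lipase (-2.57 ± 0.14). Gpd1, the cytosolic glycerol-3-phosphate dehydrogenase, was higher by 3.12 ± 0.10. Mgll rose in vivo from 8.5 to 24.5 dpp by 4.21, with 0.624 to 1.18 FPKM at 8.5 dpp and 124 to 154 FPKM at 30.5 dpp, and it had at most 2.40 FPKM in explants. Gk, glycerol kinase, was highest in explants and young testes, at up to 2.20 FPKM.

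Among genes of cell volume and osmotic response, 10 of 16 tested were higher and 3 lower at D28 than at 36.5 dpp (46.7% and 23.6% of all genes), with a median of 1.37 against 0.64 over all genes. Sgk1, a kinase induced by salt and steroid hormones, was higher by 3.69 ± 0.19, and of the subunits of the volume-regulated anion channel Lrrc8d (3.01 ± 0.13) and Lrrc8a (2.52 ± 0.10) were higher and Lrrc8b (-4.56 ± 0.16) was lower. Wnk4, a kinase that controls ion cotransporters, rose between 8.5 dpp and D6 (1.56 ± 0.13, adjusted p = 0.000137).

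Of the ion transporters of fluid secretion, 5 of 10 tested were higher and 3 lower at D28 than at 36.5 dpp, with a median of 0.73. These shares and this median were near those of all genes (46.7% higher, 23.6% lower and 0.64). Slc4a2, an anion exchanger, was higher by 3.39 ± 0.13, and Atp1b1, a subunit of the sodium pump, by 2.55 ± 0.20. Cftr, a chloride channel, was lower (-2.41 ± 0.11), and it had risen from 8.5 to 24.5 dpp in vivo by 1.72 ± 0.09. Atp1b1 was the only one of this list called from 8.5 dpp to D6 (1.16 ± 0.17).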

How the data were processed

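RNA was sequenced from rat testes of 6 ages and from explants at 4 culture times. Per the labels and the methods of the study, poly(A) RNA was made into stranded libraries, read as 50 bp single reads and aligned with STAR 2.5.2a to rn6. The authors deposited 1 FPKM value per gene and library (called RPKM in the paper) for 17322 genes with Entrez identifiers, of which 17172 were named from a RefSeq table. Sample titles write dpc for ages that the other labels give as postnatal days, which were used. Of 30 libraries, 29 were analysed. The library left out was a 14.5 dpp testis labelled as an outlier, which the study excluded because its profile differed from the other 14.5 dpp testes. In the deposited values it was listed at 0 for all genes.

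Values were transformed to log2(FPKM + 1), which understates changes of low genes. A gene was tested if its median reached 0.5 FPKM in any compared group. The test was that of limma 3.58.1 in R 4.3.3, with Benjamini-Hochberg adjustment over all genes tested. Calls required an adjusted p of at most 0.05 and a 2-fold ratio of medians (for the comparison of changes, a log2 difference of at least 1). Each fit held the compared groups only. A p-value given with a fitted change is from limma, and is adjusted unless called unadjusted. The script was tested on simulated data. Python 3.11.15, numpy 2.4.6, pandas 2.3.3 and matplotlib 3.10.9 were used for the rest.

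The members and lists were chosen with earlier results of these data known. Named were the 7 members, other aquaporins, up to 4 called genes of each list with the largest changes, genes used to show markers or background, and the 3 genes most correlated with each detected member. Genes of the lists given with levels but without a test, such as Gk, were chosen after their values were seen. Some genes of the lists are counted but not reported here by name. Aqp8 had no test in culture or with 14.5 dpp. Read counts were not used, so the depth is unknown and no counting interval is given. Alternatives changed the pseudocount, the filter, the scaling, the groups in the fit, the prior variance and the replicate block, and each library was left out in turn. Per the methods of the study, RNA came from different testes in vivo, and the cultured libraries of a time came from independent RNA isolations and different males.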

Additional observations from a re-analysis of the deposited data

Results flagged for a closer look

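The change from D16 to D28 in culture differed from that between 24.5 and 36.5 dpp in vivo for 2 tested members. Aqp7 differed by -4.94 on the log2(FPKM + 1) scale (-5.52 with a pseudocount of 0.1), where D28 libraries were all listed at 0. D16 libraries had at most 0.0543 FPKM, so this difference mainly restates the rise of Aqp7 in vivo. Aqp11 differed by -2.67, with changes of 3.11 in the testes and 0.44 in explants. For Aqp8 the difference was 2.82 in the other direction, with changes of -1.49 in vivo and 1.33 in culture and no overlap of the groups, and this difference was not tested because Aqp8 had been chosen for its rise.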

How the results depend on the processing

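Over the alternatives, 13 calls between in vivo ages became 12 to 14, 12 calls against age-matched testes 12 or 13, 5 calls of the F test 5 or 6, and 2 calls in the comparison of changes 2 or 3. The 1 call over the steps from 8.5 dpp to D6 and on to D28, that of Aqp1 at D6 against 8.5 dpp, became 2 without the first D6 library, when Aqp11 passed in the same comparison (range 1 to 2 over libraries left out). Reversed signs were seen in values that were not called. Aqp8 from 36.5 to 53.5 dpp (0.07) became -0.091 after rescaling and -0.14 without the third 53.5 dpp testis. Aqp1 from D22 to D28 (-0.02) ranged from -0.28 to 0.33 over libraries left out. In the comparison of changes (-0.16) it became 0.21 with a pseudocount of 0.1 and ranged from -0.42 to 0.028 over libraries left out. Aqp9 in that comparison passed in 1 fit of all 10 groups (adjusted p = 0.00716), with its medians in explants below the limit of detection.

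Same-numbered libraries did not deviate together (0 of 45 pairs of groups had all correlations above 0.1, range -0.14 to 0.22), so the numbers were not taken as pairs. With the replicate block, the 5 counts were 14, 1, 12, 5 and 2, and Aqp1 from 14.5 to 24.5 dpp was the member gained (adjusted p = 0.0423). Over all genes the block gave 4 calls instead of 18 from D16 to D22, where 1 fit of all groups gave 46. From D22 to D28, 1 fit of all groups gave 1 instead of 3. Leaving out 1 library at a time gave 8 to 1192 calls instead of 846 from 30.5 to 36.5 dpp (8 without the third 30.5 dpp testis and 17 to 60 without any of the 36.5 dpp testes), 2585 to 4365 instead of 4131 from 14.5 to 24.5 dpp (lowest without the first 14.5 dpp testis), 243 to 398 instead of 368 from D6 to D16 (lowest without the second D16 library), 8 to 19 from D16 to D22 (lowest without the first D16 library) and 3 to 8 from D22 to D28 (7 or 8 without the third D22, the first D28 or the third D28 library). Rescaling libraries to the same sum gave 1371 calls instead of 867 from 36.5 to 53.5 dpp. It moved the median change of all genes by 0.113 from 8.5 to 14.5 dpp, by 0.129 from 8.5 to 24.5 dpp, by -0.118 from 36.5 to 53.5 dpp and by 0.101 in the comparison of changes. The share of calls that were higher moved from 56.2% to 68.9%, from 84% to 68.3% and from 36.7% to 18.7% for the steps from 8.5 to 14.5, 30.5 to 36.5 and 36.5 to 53.5 dpp. Depth is unknown, which limits the reading of Aqp3, Aqp4 and the lowest levels of the others. Except where named, the cause of these differences was not tested.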
